A study of Mus musculus and Homo sapiens with 4 samples.

Results

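The class 3 semaphorins, a family of secreted guidance cues, and the neuropilins and plexins that receive them were examined in mouse embryonic fibroblasts (MEFs) labelled as wild type or as knockout for the long non-coding RNA NEAT1. The 10 genes were taken by symbol from the 23329 entries of both libraries: the ligands Sema3a, Sema3b, Sema3c, Sema3d, Sema3e and Sema3f, the co-receptors Nrp1 and Nrp2, and the signalling receptors Plxna1 and Plxnd1. Each stood on 1 entry. They were selected on the RPKM values of these libraries, with the ratio of KO to WT already known, so that ratio is given as a description and carries no test.

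The series holds 4 RNA-seq libraries, 1 per condition, of which the 2 libraries of poly-A RNA from MEFs were used. The MEF lines were derived from wild-type (WT) and NEAT1 knockout (KO) embryos at E13.5, both of strain C57BL/6, and were cultured to passage 2 to 3 in the same medium. How many embryos or clones went into each line and how the Neat1 gene was disrupted are not given in the sources used here. The comparison asks what differs when NEAT1, the RNA around which nuclear paraspeckles form, is knocked out. Because each genotype is represented by 1 library, there is no spread between replicates against which a difference could be held, and no P-value is given. Genotype and culture cannot be told apart.

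Class 3 semaphorins are released by one cell and read by another. Most of them bind a neuropilin, which has only a short cytoplasmic tail, and signal through a plexin of the A type held in the same complex; the plexin then acts on small GTPases and on the cytoskeleton, and the exposed cell pulls back its edge or turns away. Sema3e is an exception and can bind Plxnd1 without a neuropilin. Sema3a is the founding member, known for collapsing the growth cones of axons, and mesenchymal cells around growing nerves and vessels are among its sources.

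Neat1 itself (chromosome 19, 5842302 to 5845478, mm10) was at 29.5 RPKM in WT and 2.01 RPKM in KO fibroblasts, where RPKM is a read number scaled by entry length and by the mapped reads of the library. Its log2 ratio was -3.34, in the direction of the labels. The KO value was not 0, and corresponds to about 357 reads at the depth estimated below. This entry does not span the longer NEAT1 isoform that the paper describes. All log2 ratios below are of KO over WT after 1 RPKM was added to each value, which understates the difference of genes with low levels. The libraries were close in scale. Of all entries, 10888 had at least 1 RPKM on both sides, and their median log2 ratio was -0.06, and 11233 entries reached 1 RPKM in WT against 11118 in KO. The total read number is not given in the sources used here. Low values recurred at steps that, for entries with 1 known transcript length, would correspond to 62700000 reads in WT and 59200000 in KO if the smallest common step is 1 read. That step was 0.01595 in WT and 0.0169 in KO, in RPKM times length in kb. The commonest step was larger, at 0.0319 (118 entries) in WT and 0.0338 (96 entries) in KO. If the commonest step were 1 read, all read numbers given here would be smaller in proportion. Both totals are estimates, since 54.9% and 59.9% of the entries of up to 5 steps lay within 0.1 of a whole step, where 20% would do so without steps.

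Sema3a was the member with the log2 ratio farthest from 0. It was at 8.38 RPKM in WT and 1.50 RPKM in KO fibroblasts, 5.60 times higher in WT, a log2 ratio of -1.91. This was the 5th lowest log2 ratio of all 23329 entries, after Xist, Tsix, Neat1 and Hist1h2af. Sema3a was the only member beyond a log2 ratio of 1 in either direction. Across all entries 78 (0.334%) lay below -1 and 228 (0.977%) above 1, or 0.68% and 1.99% of the 11463 entries with at least 1 RPKM in at least 1 library. The Sema3a entry (chromosome 5, 13396784 to 13603485) covers 3 RefSeq transcripts. With the estimated depth its values correspond to between 2145 and 3114 reads in WT and between 361 and 525 in KO, depending on which transcript length is used.

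Of the 6 ligands, 5 were lower in KO and 1 was higher. Among the 5 that reached 1 RPKM in at least 1 library, 4 were lower and 1 was higher. Of all 11463 entries that reached it, 60.8% were lower in KO. Sema3c, which guides neural crest and vascular cells in the developing outflow tract, was at 7.01 RPKM in WT and 3.78 in KO, a log2 ratio of -0.75. Sema3e, the ligand of Plxnd1, was at 3.24 RPKM in WT and 1.84 in KO, a log2 ratio of -0.58. In WT the level of Sema3c was 1.86 times and that of Sema3e 1.76 times that in KO. Sema3f, a ligand that prefers Nrp2, was at 20.4 RPKM in WT and 14.3 in KO, a log2 ratio of -0.49. Sema3b, a close relative of Sema3f that was first studied as a candidate tumour suppressor of the lung, was at 3.17 RPKM in WT and 4.43 in KO, a log2 ratio of 0.38, and was the one ligand with more in KO.

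Sema3d needs to be read on the scale of the values themselves. It was at 0.758 RPKM in WT and 0.102 RPKM in KO, 7.45 times higher in WT and thus a larger relative difference than that of Sema3a, yet its log2 ratio was only -0.67 because both values are small beside the 1 RPKM added. With 0.1 RPKM added in place of 1, the log2 ratio was -2.09 for Sema3d and -2.41 for Sema3a. The estimated read numbers behind the Sema3d values were 300 in WT and 38 in KO. Sema3d was the one member that did not reach 1 RPKM in either library. The last gene of the class, Sema3g, which is not one of the 10 and is best known from blood vessels, was near the bottom of the range with 0.0560 RPKM in WT and 0.0527 in KO, about 16 and 14 reads.

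**Figure D1:**
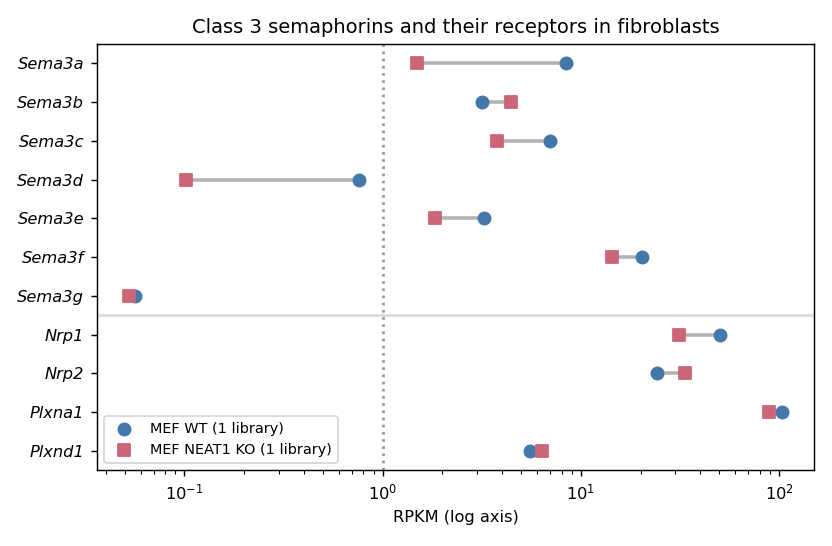
RPKM (log axis) of the class 3 semaphorins and of the 4 receptors in the WT library (circles) and the KO library (squares), with 1 library each and therefore no error bars. The longest lines are those of Sema3d (0.758 to 0.102 RPKM) and Sema3a (8.38 to 1.50 RPKM), and the KO square lies to the right for Sema3b, Nrp2 and Plxnd1 only; the dotted line marks 1 RPKM.

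The order of the ligands differed between the libraries, with Sema3a and Sema3b in exchanged places. RPKM is per length, so levels of different genes can be set side by side within a library. In WT fibroblasts Sema3f had the highest level, followed by Sema3a, Sema3c, Sema3e, Sema3b, Sema3d and Sema3g, where Sema3e and Sema3b lay close together (3.24 and 3.17 RPKM). In KO fibroblasts Sema3f was followed by Sema3b, Sema3c and Sema3e, and Sema3a came after these. The level of Sema3f was 2.44 times that of Sema3a in WT and 9.55 times in KO. The summed level of the 7 ligands was 43.0 RPKM in WT and 26.0 RPKM in KO. Sema3a held 19.5% of that sum in WT and 5.76% in KO, whereas the share of Sema3f was 47.4% in WT and 55.0% in KO and that of Sema3b 7.37% and 17.1%.

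3 of the receptors were at higher levels than any ligand, and their log2 ratios lay between -0.67 and 0.46. Nrp1, the co-receptor of Sema3a and also of vascular endothelial growth factor, was at 50.4 RPKM in WT and 31.3 in KO, a log2 ratio of -0.67. Nrp2, the co-receptor of Sema3f, was at 24.1 RPKM in WT and 33.5 in KO, a log2 ratio of 0.46. The neuropilins therefore differed in opposite directions. Nrp1 had 2.09 times the level of Nrp2 in WT and 0.934 times in KO, and their summed level was 74.5 RPKM in WT and 64.8 in KO. A microRNA gene, Mir1903, shares 80 bases with exons of Nrp1, and reads from it could be counted there.

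Plxna1, a signalling partner of both neuropilins, had the highest level of the 10 genes, with 103 RPKM in WT and 89.0 in KO, a log2 ratio of -0.21. By level it stood at rank 553 in WT and 671 in KO among all entries. Exons of an antisense gene, Gm26811, overlap 970 bases of its exons, and the strand of MEF reads is not stated, so reads of the pair cannot be told apart. Plxnd1, which receives Sema3e, was at 5.52 RPKM in WT and 6.35 in KO, a log2 ratio of 0.17. The other 8 members share no exonic base with another annotated gene. Of the 4 receptors, 2 were lower in KO and 2 higher. Of all 11463 entries with at least 1 RPKM in at least 1 library, 60.8% were lower in KO. The receptor median was -0.02 on the log2 ratio scale, from values between -0.67 and 0.46, against a median of -0.63 for the 6 ligands. Ligands and receptors alike were chosen with these ratios known.

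Set against all genes, 6 of the 9 members with at least 1 RPKM in at least 1 library were lower in KO and 3 were higher. Among all 11463 such entries 60.8% were lower in KO and 39.2% higher, so the share of members below 0 was near the background. The median log2 ratio was -0.49 over these 9 members, against -0.06 over the 11463 entries, and -0.53 over all 10 members, against 0 over all 23329 entries. Sema3c, Nrp1, Sema3e and Sema3f had more negative log2 ratios than most entries, and only 2.36%, 3.37%, 5.01% and 7.62% of the 11463 entries lay below them. At the other end 93.7% of the entries lay below Nrp2 and 92.3% below Sema3b. Since the members were chosen with these ratios known, this is a description of the choice and supports nothing further.

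**Figure D2:**
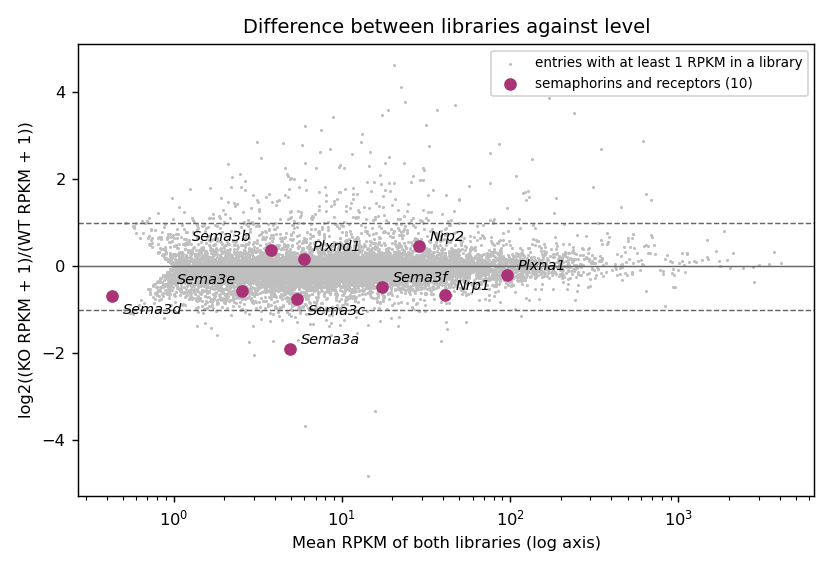
Log2 ratio of KO over WT (1 RPKM added to each) against the mean RPKM of both libraries (log axis), with the 11463 entries that reached 1 RPKM in at least 1 library in grey and the 10 semaphorin and receptor genes as large labelled points. Sema3a is the one of the 10 below the lower dashed line at -1 (log2 ratio -1.91), while Plxna1 at the right, with 103 and 89.0 RPKM, lies near 0.

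The ligands and the receptors that they use can be read together. For the pair of Sema3a and Nrp1 both values were lower in KO. For Sema3f and Nrp2 the ligand was lower and the co-receptor higher. For Sema3e and Plxnd1 the ligand was lower, and the receptor was only slightly higher (log2 ratio 0.17). Sema3b, Sema3c and Sema3d were not paired here. The summed level of the neuropilins was 1.73 times that of the ligands in WT and 2.49 times in KO. These are levels of RNA in the culture as a whole. In such bulk samples fewer cells that express a gene and less RNA per cell cannot be told apart.

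The remaining genes, those of the pathway and of other guidance families, were taken from lists of 100 further genes, of which 75 reached 1 RPKM in at least 1 library. None lay below a log2 ratio of -1 and 2 lay above 1, and the median log2 ratio over the 100 was -0.02. The 9 plexins ranged from -0.30 (Plxna2, 3.34 RPKM in WT and 2.53 in KO) to 0.17. Plxnb2, a receptor for class 4 semaphorins, was next in level to Plxna1, with 84.3 RPKM in WT and 81.6 in KO, and together with Plxna1 it made up most of the plexin RNA (41.2% and 50.4% of the summed level in WT). The others were low. Plxna3 was at 4.27 RPKM in WT and 3.88 in KO, and Plxnb1 at 2.69 and 2.12. Plxna4 (0.837 and 0.982 RPKM) and Plxnc1 (0.411 and 0.591 RPKM) stayed under 1 RPKM, and Plxnb3 was listed at 0 in both.

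Semaphorins of the other classes, most of which are anchored in the membrane, were taken as a list of 13 genes. Of these, 7 reached 1 RPKM in at least 1 library, with 5 higher and 2 lower in KO. Among all 11463 entries that reached it, 39.2% were higher and 60.8% lower. The most abundant was Sema7a, a lipid-anchored semaphorin that signals through integrins and Plxnc1, with 14.1 RPKM in WT and 20.2 in KO (log2 ratio 0.49). The summed level of the 13 genes was 34.7 RPKM in WT and 43.0 in KO. That of class 3 was 43.0 in WT and 26.0 in KO, and its genes other than Sema3g were chosen with their ratios known.

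Downstream of the plexins, 23 genes of intracellular effectors had a median log2 ratio of -0.08 and ranged from -0.34 to 0.59, so that none was beyond 1. The most abundant was Cfl1, the actin-severing protein cofilin, with 797 RPKM in WT and 754 in KO. The collapsin response mediator Crmp1, which carries the Sema3a signal to microtubules, had the lowest ratio, -0.34 (2.87 RPKM in WT and 2.05 in KO), and the small GTPase Rras, a substrate of the plexin GAP domain, the highest, 0.59 (68.7 and 103.7 RPKM).

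Ligands that compete for or share the neuropilins went both ways. Among 5 genes of the vascular endothelial growth factor family, Vegfa was at 29.4 RPKM in WT and 57.3 in KO, a log2 ratio of 0.94, just inside the threshold of 1. Vegfc, a ligand of Nrp2 and Flt4, was at 6.14 and 10.6 RPKM (log2 ratio 0.70). Figf had the lowest log2 ratio of the 5, -0.57, at 3.54 RPKM in WT and 2.06 in KO. Among the 9 co-receptors Flt1, a decoy receptor for Vegfa, was highest in log2 ratio at 0.89 (10.2 RPKM in WT and 19.8 in KO). With 1 RPKM added, Nrp1 had the lowest log2 ratio of these 9 genes. That order rests on the amount added. In plain KO over WT, Nrcam (0.355), Kdr (0.392) and Met (0.558) were lower than Nrp1 (0.621), and the rest were higher. Nrcam stayed below 1 RPKM in both libraries (0.574 in WT and 0.204 in KO), and Kdr was at 1.01 in WT and 0.397 in KO.

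Secreted semaphorins are cut by proprotein convertases, which alters their activity. Of 5 genes, 4 of these convertases and the metalloprotease gene Adamts1, 1 was beyond the threshold: Pcsk5 was at 0.640 RPKM in WT and 3.56 in KO, a log2 ratio of 1.47. Furin, the most abundant of the 5, was at 75.2 RPKM in WT and 82.6 in KO. The other gene above 1 was in the list of 16 further guidance ligands (slits, netrins, ephrins and repulsive guidance molecules): Slit3, a ligand of the Robo receptors, was at 23.5 RPKM in WT and 55.0 in KO, a log2 ratio of 1.19. Slit2, at 43.3 and 44.5 RPKM, was the most abundant of these ligands by the mean of both libraries. The 23 further guidance receptors had a median of 0 and none beyond 1, with Unc5b the most abundant (122 RPKM in WT and 110.0 in KO). None of the 16 other guidance ligands lay below -1.

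**Figure D3:**
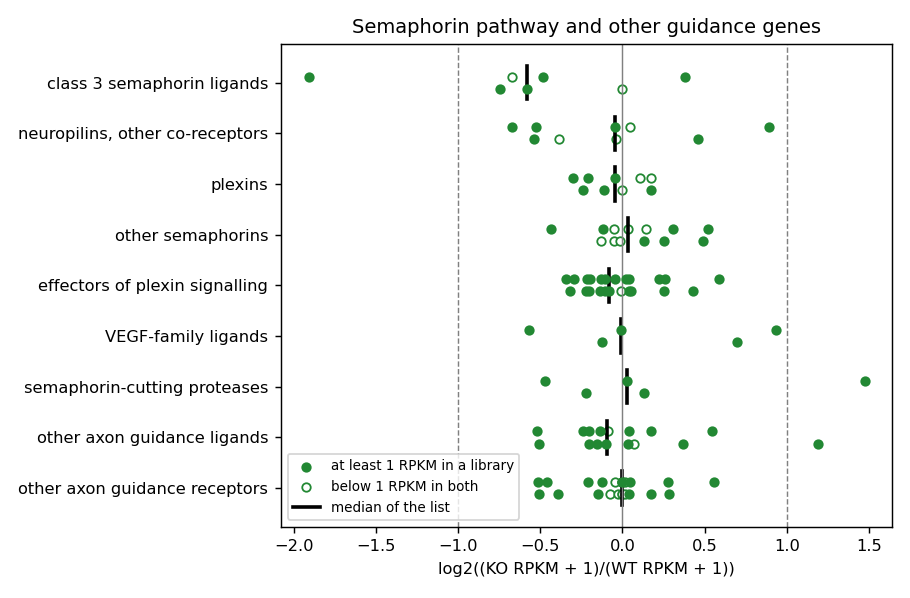
Log2 ratio of KO over WT (horizontal axis, 1 RPKM added to each value) for every gene of 9 lists (rows), with filled circles for genes that reached 1 RPKM in at least 1 library, open circles for the others, and a bar at the median of the list. The bar of the class 3 semaphorin ligands stands at -0.58, the bars of the other lists between -0.09 and 0.03, and the dashed lines mark -1 and 1. Over the filled circles alone the class 3 median is again -0.58. Those of the other lists then run from -0.29 (neuropilins and other co-receptors) to 0.25 (other semaphorins). The class 3 members were chosen with their ratios known.

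Of the 5 ligands that were lower in KO, 4 lie on 1 chromosome. Sema3d (12383166 to 12588943), Sema3a, Sema3e (14025276 to 14256689) and Sema3c (17574816 to 17730267) lie in this order on the plus strand of mouse chromosome 5 (mm10), within 5.35 Mb. All 4 were lower in KO, with log2 ratios of -0.67, -1.91, -0.58 and -0.75. Lower values in KO were common, at 60.8% of the 11463 entries with at least 1 RPKM in at least 1 library. Sema3d reached 1 RPKM in neither library. The region was chosen after the values of these genes had been seen. It holds 12 other entries, of which 2 reached 1 RPKM in at least 1 library. Cacna2d1, a calcium channel subunit, was at 5.95 RPKM in WT and 4.13 in KO (log2 ratio -0.44), and Hgf, the ligand of the receptor Met, at 1.99 and 2.66 RPKM (0.29). The lower values were thus not shared by every expressed entry of the region. The other 2 ligands among the members lie on chromosome 9, where Sema3b (107598115 to 107609241) and Sema3f (107681502 to 107710475) stand on the minus strand within 0.112 Mb and differed in opposite directions. Of the 3 entries between them Gnai2, a G protein subunit gene, was the one that reached 1 RPKM, and it was at 247 RPKM in WT and 237 in KO.

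**Figure D4:**
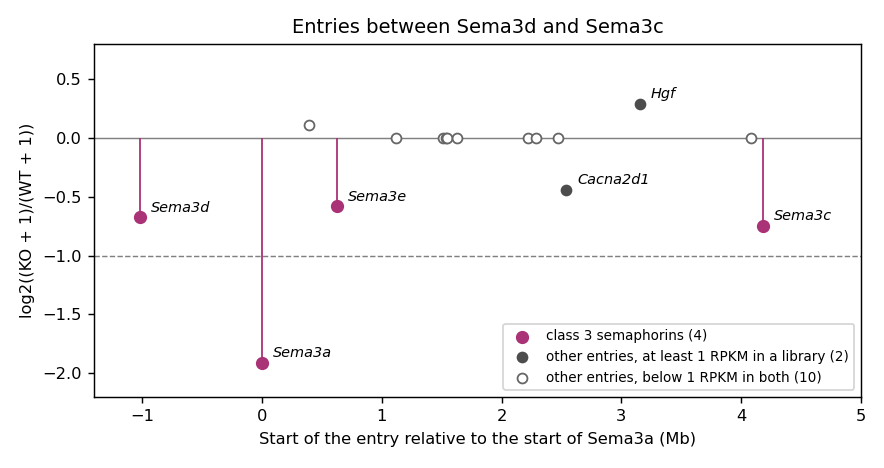
Log2 ratio of KO over WT for the 16 entries from Sema3d to Sema3c on chromosome 5, against the distance of each start from that of Sema3a in Mb. The 4 semaphorins lie below 0, from -0.58 to -1.91, while Hgf lies above at 0.29 and the 10 open circles are entries that did not reach 1 RPKM in either library.

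The sequences before the starts of these 4 neighbouring entries are shown because the genes differed in the same direction; they come from RefSeq (GRCm38.p6, the same assembly as mm10), which gave a window for 7 of the 10 members. Each is the plus strand of chromosome 5, written 5′ to 3′, and covers the 250 bases before the start of the entry. Capitals mark matches to any of 4 motifs searched on both strands.
Sema3d, chr5:12382916-12383165: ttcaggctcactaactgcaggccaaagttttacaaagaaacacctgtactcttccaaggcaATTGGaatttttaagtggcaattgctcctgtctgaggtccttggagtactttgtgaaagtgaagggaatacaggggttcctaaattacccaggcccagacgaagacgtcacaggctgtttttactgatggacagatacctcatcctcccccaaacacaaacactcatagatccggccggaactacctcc
Sema3a, chr5:13396534-13396783: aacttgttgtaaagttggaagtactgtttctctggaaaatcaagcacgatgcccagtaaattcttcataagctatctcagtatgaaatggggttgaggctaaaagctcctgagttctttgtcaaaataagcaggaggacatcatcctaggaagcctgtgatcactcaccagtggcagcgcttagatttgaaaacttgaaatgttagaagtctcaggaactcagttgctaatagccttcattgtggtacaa
Sema3e, chr5:14025026-14025275: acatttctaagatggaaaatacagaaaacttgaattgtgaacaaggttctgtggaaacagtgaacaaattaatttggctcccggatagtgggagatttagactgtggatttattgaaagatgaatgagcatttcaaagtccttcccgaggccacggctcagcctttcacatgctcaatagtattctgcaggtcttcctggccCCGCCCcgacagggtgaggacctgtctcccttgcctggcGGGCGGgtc
Sema3c, chr5:17574566-17574815: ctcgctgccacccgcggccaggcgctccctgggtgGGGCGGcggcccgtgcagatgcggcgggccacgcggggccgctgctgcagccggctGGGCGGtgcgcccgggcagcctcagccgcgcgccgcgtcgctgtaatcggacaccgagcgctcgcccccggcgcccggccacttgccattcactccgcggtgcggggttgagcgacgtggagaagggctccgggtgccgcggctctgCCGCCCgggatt

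These windows are unlike each other. The window of Sema3c is rich in G and C (78.4%) and holds 39 CpG dinucleotides, that of Sema3a is the poorest (40.8% and 2 CpG), and those of Sema3d (46.8%, 4 CpG) and Sema3e (48.0%, 7 CpG) lie between, against medians of 52.4% and 6 CpG over 32851 windows. The first motif was TATAAA, known from many start sites and held by 12.4% of all windows. The second was the CCAAT box, held by 33.8%, and the third was GGGCGG, the GC box, held by 32.7%. The last was the core of the interferon-stimulated response element, which is GAAA followed by any 2 bases and again GAAA, held by 2.98%. Sema3c held 3 GC boxes and Sema3e 2, Sema3d held 1 CCAAT box on the minus strand, and no motif matched in the window of Sema3a. The windows of Nrp1 and Plxnd1 held 1 GC box each and that of Nrp2 held 5, of which 2 overlap by 1 base. None of the 7 windows held the first or the last motif. A match of letters is a description and says nothing of which factor binds there. RefSeq also gives the Sema3a gene an earlier start, outside the entry, whose window is not shown.

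The entries most like Sema3a were found by the distance between log2(RPKM + 1) values in both libraries. Rab3b (8.88 RPKM in WT and 2.07 in KO), Gja3 (6.55 and 1.27 RPKM) and Npr3 (6.58 and 2.20 RPKM) were nearest, at distances of 0.31, 0.34 and 0.47. With only 2 libraries this likeness is a match of 2 values, and nothing about shared function follows from it.

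Other features moved with the genotype of the libraries, and their part in the semaphorin values was not tested. The fibroblast markers were present in both, from 4.18 RPKM (Pdgfra) to 3151 RPKM (Vim) in WT, with a summed level over 10 genes of 6726 RPKM in WT and 6633 in KO. Of the 10 genes, 7 were higher in KO and 3 lower. The 2 beyond a log2 ratio of 1 were Dcn (19.8 to 64.0 RPKM, 1.64) and Pdgfra (4.18 to 13.8 RPKM, 1.51), and the lowest was Fn1 (765 and 517 RPKM, -0.56). Endothelial cells also express Nrp1 and Plxnd1, and the 8 endothelial markers summed to 1.38 RPKM in WT and 0.736 in KO, with Kdr the only one to reach 1 RPKM (1.01 in WT) and Pecam1 (0.0336 and 0.0305 RPKM) and Cdh5 (0.00114 and 0.00847 RPKM) near 0. All 6 macrophage markers were higher in KO, with a sum of 17.9 RPKM in WT and 44.7 in KO, led by Lyz2 (13.9 and 34.7 RPKM), and Ptprc was below 0.1 RPKM in both. The 7 neural and glial markers summed to 44.2 RPKM in WT and 39.6 in KO; Tubb3 was at 35.9 RPKM in WT and 36.1 in KO and Stmn2 at 8.03 and 3.27, while Sox10 and Sox2 were below 0.1 RPKM in both. The epithelial sum was 1.12 RPKM in WT and 0.684 in KO, of which Krt18 gave nearly all (1.02 and 0.660 RPKM), and Cdh1 was listed at 0 in both. The skeletal muscle sum was 18.9 and 7.46 RPKM, led by Acta1 (12.6 and 4.26 RPKM), with Myod1 and Myog below 0.1 RPKM. The 8 interferon-response genes, led by Isg15 (20.8 and 319 RPKM), were all higher in KO and their median log2 ratio was 3.65. Xist was at 28.6 RPKM in WT and 0.0500 in KO, whereas the 4 Y-linked genes summed to 0.0233 RPKM in WT and 13.2 in KO, led by Eif2s3y (listed at 0 in WT and 6.30 RPKM in KO). The libraries therefore differed in these sex-linked transcripts as well as in Neat1, and a difference that goes with the sex of the embryos cannot be told apart from one that goes with the genotype.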

How the data were processed

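Poly-A RNA of 1 WT and 1 NEAT1 KO fibroblast line was sequenced, and the authors deposited 1 RPKM value per entry, with no scaling between libraries stated. The submitters' processing notes name CASAVA 1.8 and the builds mm10 and hg18; counter and annotation are not given in the sources used here. Starts in the files are counted from 0 and were raised by 1. Log2 ratios were computed with 1 RPKM added (Python 3.11.15, numpy 2.4.6, pandas 2.3.3, matplotlib 3.10.9; scripts tested on simulated data), and 1 in either direction was the threshold. No test was made, with 1 library per condition. Read numbers were estimated from the steps of low values and GENCODE M21 transcript lengths.

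The members, gene lists and threshold were chosen with earlier results of these data known. Named were the members and Sema3g, Neat1, all plexins, list genes beyond the threshold, the most abundant gene of each list, the 3 entries nearest to Sema3a, and human counterparts; other genes were named after their values were seen. Of the marker genes, Map2 matched no symbol and Adgre1 was read as Emr1; a further marker is not reported here. Alternatives were 0.1 RPKM added, a filter that kept entries reaching 1 RPKM on either side, centring of the ratios, quantile normalization, summing entries of a symbol, and a threshold of 2.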

Additional observations from a re-analysis of the deposited data

How the results depend on the processing

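The direction of all 10 members was the same under every alternative in which they had a value. The filter, the summing, the threshold and the amount of RPKM added cannot change the sign of a ratio. Centring took away a median of -0.06, smaller in size than the member ratio nearest to 0 (Plxnd1, 0.17). Quantile normalization was thus the only alternative that could have changed a direction. With 0.1 RPKM added, 2 members lay below -1 in place of 1, because the log2 ratio of Sema3d became -2.09, and 540 entries in place of 78 lay below -1 and 500 in place of 228 above 1. Among the 100 further pathway genes 2 then lay below -1, Kdr (-1.16) and Nrcam (-1.15). With a threshold of 2, 0 members and 4 entries lay below and 52 entries above, and 0 of the further pathway genes did. The log2 ratio of Sema3a ranged from -2.41 with 0.1 RPKM added to -1.85 after quantile normalization, and the median of the members from -0.60 to -0.47. The minimum of 1 RPKM left Sema3d out. No symbol stood on more than 1 entry, so summing changed no value. Leaving out a replicate was not possible. No paired analysis was possible because each condition has 1 library. Depth limits Sema3d and Sema3g most, with 38 and 14 estimated reads in KO.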

Other observations

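The human counterparts of the 10 genes were read in the other pair of libraries, from VCaP prostate cancer cells and VCaP ERα cells, which overexpress the oestrogen receptor. These libraries were made after removal of ribosomal RNA, so their levels were not set beside those of the fibroblasts. VCaP cells were at passage 5 to 6 and VCaP ERα cells at passage 4 to 5, so the cells differed in passage as well. All 10 counterparts were lower in the VCaP ERα library, 7 of them by more than 1 on the log2 scale with 1 RPKM added, and their median log2 ratio was -2.25. For the 9754 entries at 1 RPKM or more in both VCaP libraries the median was -0.59, and of the 13954 entries with at least 1 RPKM in at least 1 of them 64.0% were lower and 34.3% were below -1. The 10 counterparts are not the same kind of set, since SEMA3A and SEMA3D reached 1 RPKM in neither library. SEMA3C was the highest of the ligands in the library labelled VCaP, with 139 RPKM against 9.72 RPKM in VCaP ERα (log2 ratio -3.70). PLXND1, at 25.3 and 0.423 RPKM (-4.21), NRP1, at 24.1 and 1.78 RPKM (-3.17), and PLXNA1, at 18.8 and 1.85 RPKM (-2.80), were the receptors with the largest differences, and NRP2 was at 1.74 and 0.399 RPKM (-0.97). SEMA3F was at 10.1 and 1.00 RPKM (-2.47), SEMA3E at 5.79 and 0.668 RPKM (-2.03), SEMA3B at 4.96 and 1.28 RPKM (-1.39) and SEMA3D at 0.987 RPKM and a listed 0 (-0.99). SEMA3A, whose mouse counterpart had the lowest log2 ratio of the 10 genes in the fibroblasts, was low in both, at 0.206 and 0.0197 RPKM (-0.24). SEMA3G went the other way, from 0.0304 to 1.56 RPKM (log2 ratio 1.31). Each condition again has 1 library, so none of these differences has a replicate check.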
